A study of Homo sapiens with 6 samples.

Results

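The genes of cholesterol and fatty acid synthesis were followed in C4-2B cells, which are a bone metastatic derivative of the prostate cancer line LNCaP, after treatment with SR2211, XY011 or ENZ (enzalutamide, also MDV3100). The set was chosen by gene symbol and holds 34 genes, 21 of a sterol arm and 13 of a fatty acid arm, of 17602 genes listed in the SR2211 experiment, 16293 in the XY011 experiment and 22640 in the ENZ experiment. All 34 were found and reached a value of 1 or more in at least 1 library of every pair, with SC5DL listed under its current name SC5D. There were 6 poly(A)-selected RNA-seq libraries in 3 experiments, with 1 library per group: SR2211 at 5 µM and its vehicle, XY011 at 5 µM and its vehicle, and ENZ at 20 µM and its vehicle, each for 48 h. All cells, vehicle controls included, were kept in medium in which most of the serum was charcoal-stripped to lower its hormones, as a model of castration-resistant disease. The series title names ROR-γ, the nuclear receptor that SR2211 acts on, as a driver of androgen receptor expression, and enzalutamide blocks the androgen receptor. Titles and agents give these groups, while the extraction protocol names XY018 where the title has XY011 and names SR2211 for the ENZ pair. The compound of those 2 treated libraries thus rests on their titles and agents. A single cell line was used, and with 1 library per group no difference within an experiment has a replicate check.

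Cholesterol and fatty acids are both built from acetyl-CoA. In the sterol arm, acetyl-CoA passes through mevalonate and farnesyl diphosphate to squalene, lanosterol and cholesterol, while in the fatty acid arm it is made into palmitate, which is then elongated and desaturated. The transcription factors SREBP-2 (from SREBF2) and SREBP-1 (from SREBF1) switch these genes on when sterols are low, and INSIG1 holds them in the endoplasmic reticulum when sterols are high. In prostate cells androgens raise many of these genes through the same factors, and prostate tumours are known for active lipid synthesis.

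The bases upstream of the start site are shown for 5 members that carry the main results, the regulator SREBF2, TM7SF2 and EBP of the sterol arm and SCD and ELOVL5 of the fatty acid arm. They are RefSeq promoters of build GRCh38.p14, 250 bases each, read 5′ to 3′ on the strand of the gene. Capitals mark the sterol regulatory element, searched as TCACNCCAC, and the CCAAT box, each on both strands, so a reverse CCAAT box reads ATTGG. The positions are chr22:41832855-41833104 (plus strand) for SREBF2, chr11:65111622-65111871 (plus) for TM7SF2, chrX:48521558-48521807 (plus) for EBP, chr10:100346983-100347232 (plus) for SCD and chr6:53348951-53349200 (minus) for ELOVL5.
SREBF2: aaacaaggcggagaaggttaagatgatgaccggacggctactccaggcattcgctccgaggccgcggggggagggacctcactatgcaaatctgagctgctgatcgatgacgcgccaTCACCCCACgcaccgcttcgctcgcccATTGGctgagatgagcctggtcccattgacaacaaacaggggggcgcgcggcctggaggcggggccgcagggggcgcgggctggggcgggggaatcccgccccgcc
TM7SF2: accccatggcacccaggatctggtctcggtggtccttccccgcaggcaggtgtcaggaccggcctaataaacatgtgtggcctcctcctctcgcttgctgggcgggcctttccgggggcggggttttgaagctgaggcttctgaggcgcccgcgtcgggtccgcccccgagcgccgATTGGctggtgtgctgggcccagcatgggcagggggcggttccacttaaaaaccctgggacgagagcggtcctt
EBP: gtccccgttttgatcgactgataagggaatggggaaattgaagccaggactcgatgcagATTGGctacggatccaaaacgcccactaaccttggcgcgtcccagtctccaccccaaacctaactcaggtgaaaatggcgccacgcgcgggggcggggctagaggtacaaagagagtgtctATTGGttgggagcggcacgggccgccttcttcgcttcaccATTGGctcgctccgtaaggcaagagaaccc
SCD: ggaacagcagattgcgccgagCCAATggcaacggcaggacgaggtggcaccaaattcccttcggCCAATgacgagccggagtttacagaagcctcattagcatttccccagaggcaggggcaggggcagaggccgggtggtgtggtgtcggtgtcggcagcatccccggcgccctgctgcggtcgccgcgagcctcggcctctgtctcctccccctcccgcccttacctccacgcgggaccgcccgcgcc
ELOVL5: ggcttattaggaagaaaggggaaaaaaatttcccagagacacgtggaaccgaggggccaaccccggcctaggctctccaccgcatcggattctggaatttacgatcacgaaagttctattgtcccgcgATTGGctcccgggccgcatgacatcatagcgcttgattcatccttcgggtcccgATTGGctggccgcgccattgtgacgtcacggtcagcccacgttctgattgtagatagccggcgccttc
In SREBF2 the sterol regulatory element began at position -133 from the start site and was followed by a reverse CCAAT box, the site of NF-Y, a known partner of the SREBPs, at -106. TM7SF2 had 1 reverse CCAAT box, at -74. EBP had 3 reverse CCAAT boxes and ELOVL5 had 2, while SCD had 2 on the forward strand.

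Over windows of 300 bases that also took in the first 50 after the start, promoters were matched for 30 of the 34 members, 18 sterol and 12 fatty acid genes. The CCAAT box stood in 15 of 18 sterol genes and in 4 of 12 fatty acid genes (ACLY, ACSS2, ELOVL5 and SCD), beside 34.6% of 35116 RefSeq promoters of the same length. The strict sterol regulatory element was found in 1 of 18 sterol genes, SREBF2, and in 0 of 12 fatty acid genes, beside 1.13% of all promoters. A GC box, searched as GGGCGG, stood in 17 of 18 sterol and 10 of 12 fatty acid genes, beside 45.0%, and the E-box CACGTG in 3 of 18 and 1 of 12, beside 7.26%. A match describes the letters and not a bound site. At 3 members, IDI1, FADS2 and ACACA, the bases after this start were in no GENCODE 29 transcript of the gene.

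In the vehicle libraries the genes of both arms were well expressed. On the length-scaled levels (RPKM in the SR2211 experiment, FPKM in the others) the sterol genes had medians of 29.1, 27.7 and 47.9 and the fatty acid genes medians of 108.4, 72.4 and 209 in the vehicles of the SR2211, XY011 and ENZ experiments, while all genes tested had medians of 10.9, 9.71 and 11.4. FADS2, a desaturase of polyunsaturated fatty acids, was the highest member in all 3 vehicles, at 731 RPKM, 751 FPKM and 1040 FPKM. FDFT1, squalene synthase, was the highest sterol gene, at 221 RPKM, 272 FPKM and 476 FPKM. The lowest sterol genes were STARD4 or MVK and the lowest fatty acid gene was ELOVL6.

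The vehicles of the 3 experiments were not alike in every gene. For 15 of 34 members the highest vehicle level was within 2-fold of the lowest, with NSDHL and ME1 the closest at 1.20-fold each. MVD spread over 24.2-fold, SREBF1 over 14.5-fold and FASN over 8.08-fold, and 26 of 34 members were highest in the vehicle of the ENZ experiment. The same counts were not taken over all genes, so they cannot be read as a trait of this set. The tables were normalized separately, so these levels are a description, and each treated library is set against the vehicle of its own experiment alone.

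Markers of the prostate luminal epithelium were present in every library, with 8 of 8 at 28.2 or more. Their summed level was lower with treatment, at 902 RPKM with SR2211 against 2815 RPKM with vehicle, 1126 FPKM with XY011 against 2752 FPKM with vehicle, and 2498 FPKM with ENZ against 4783 FPKM with vehicle. Without KLK3, the highest of them in most libraries, the sums were 690.3 RPKM with SR2211 against 1458 RPKM with vehicle, 664 FPKM with XY011 against 1437 FPKM with vehicle, and 1012 FPKM with ENZ against 2299 FPKM with vehicle. Of the 8, KRT8 stood above vehicle with SR2211, TMPRSS2 and KRT8 with XY011, and HOXB13 with ENZ. All adipocyte and endothelial markers listed were under 1 in every library. Of the 4 fibroblast markers COL1A1 was at 5.62 RPKM with SR2211 against 3.70 RPKM with vehicle. It was at 3.45 FPKM with XY011 against 2.00 FPKM with vehicle, and at 34.8 FPKM with ENZ against 14.1 FPKM with vehicle. In the ENZ pair COL1A2 and DCN were also listed above 1. There DCN was lower with ENZ than with vehicle, while COL1A2 was slightly higher. Of the 3 leukocyte markers only CD68 was above 1, and PTPRC, the defining one, was at 0.18 FPKM with XY011 against 0.15 FPKM with vehicle, and was not listed in the other experiments. The part of these shifts in the results below was not tested. In bulk RNA, fewer cells of a kind and less RNA per cell cannot be told apart.

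A first view is the number of members past a fixed size in each pair, a log2 change of 1 or more between treated and vehicle after 1 was added to each value, called higher or lower. With SR2211, 4 of 13 fatty acid genes were higher (ACSS2, ME1, SCD and ACSL1) and 1 was lower (ELOVL5), and of 21 sterol genes 1 was higher (TM7SF2) and 1 lower (EBP). In that pair 5.10% of 12153 genes tested were higher and 5.75% lower. With XY011, 6 of 21 sterol genes were lower (ACAT2, PMVK, FDPS, LSS, EBP and STARD4) and TM7SF2 was higher, and of the fatty acid genes ME1 was higher and ELOVL5 and FADS2 were lower. There 7.59% of 12616 genes were higher and 13.2% lower. With ENZ no member was higher, and STARD4 and ELOVL5 were lower, beside 3.68% of 19271 genes higher and 4.68% lower. ELOVL5 was past the rule in all 3 pairs.

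Changes below that size are given by their sign. In the ENZ pair 18 of 21 sterol genes had a log2 change below 0, with a median of -0.34 beside -0.02 over all genes. In the XY011 pair 15 of 21 were below 0, with a median of -0.29 beside -0.14. In the SR2211 pair 12 of 21 were, with a median of -0.17 beside -0.07. Over all genes tested, 10078 of 19271 were below 0 with ENZ, 7279 of 12616 with XY011 and 6613 of 12153 with SR2211. The fatty acid arm had medians of 0.31 with SR2211, -0.08 with XY011 and -0.13 with ENZ. When each pair was centred on its median gene, which lay at -0.08, -0.17 and -0.02 in the 3 pairs, the XY011 median of the fatty acid arm turned to 0.08. With that centring the calls over all genes of the XY011 pair were 1286 higher and 1294 lower, in place of 957 and 1662, and those of its sterol genes were 3 and 4 in place of 1 and 6.

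**Figure D1:**
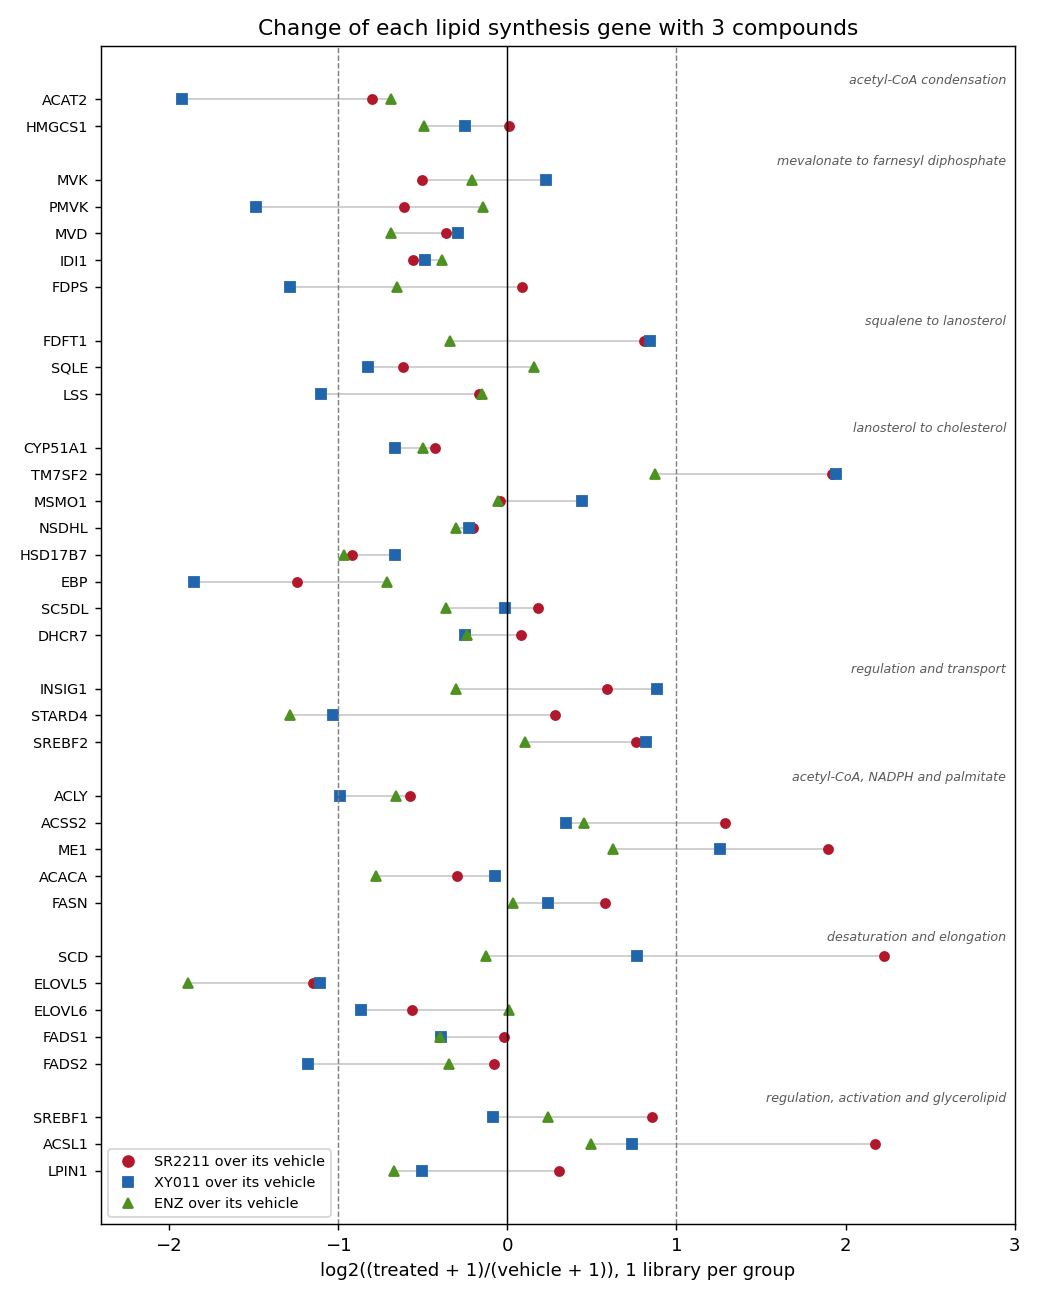
Change of each of the 34 genes as log2((treated + 1)/(vehicle + 1)) for SR2211, XY011 and ENZ, ordered by step of the pathway, with dashed lines at the size rule of 1. TM7SF2 and ME1 stand to the right with all 3 compounds, EBP and ELOVL5 to the left, and SCD lies at 2.23 with SR2211, 0.77 with XY011 and -0.13 with ENZ.

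SR2211 and XY011 were given at the same dose and for the same time, and their 4 libraries allow the only test in this design, a fit of the treatment term shared by both pairs with the experiment as a covariate (limma on log2(value + 1), Benjamini-Hochberg adjustment over 12065 genes). Its spread is the disagreement between the pairs, with 1 residual degree of freedom moderated across genes, and "rose" and "fell" are kept for members past an adjusted p of 0.05 in it. In the sterol arm 4 of 21 rose (TM7SF2, FDFT1, SREBF2 and INSIG1) and 5 fell (EBP, ACAT2, PMVK, HSD17B7 and SQLE). In the fatty acid arm 3 of 13 rose (ME1, SCD and ACSL1) and 2 fell (ELOVL5 and ACLY). Over all genes 8.93% rose and 13.3% fell, and the median change was -0.32 in the sterol arm, -0.10 in the fatty acid arm and -0.10 over all genes. Centring each pair gave 8 members that rose and 4 that fell, with SQLE, HSD17B7 and ACLY no longer past the threshold, and quantile scaling gave 7 and 3, without PMVK as well. Over all genes the same scalings gave 1504 that rose and 1403 that fell with centring and 1030 and 992 with quantile scaling, in place of 1078 and 1610. When 0.1 was added in place of 1, no gene of the table passed, members included, while 7 members had an unadjusted p under 0.05 upward and 8 downward.

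**Figure D2:**
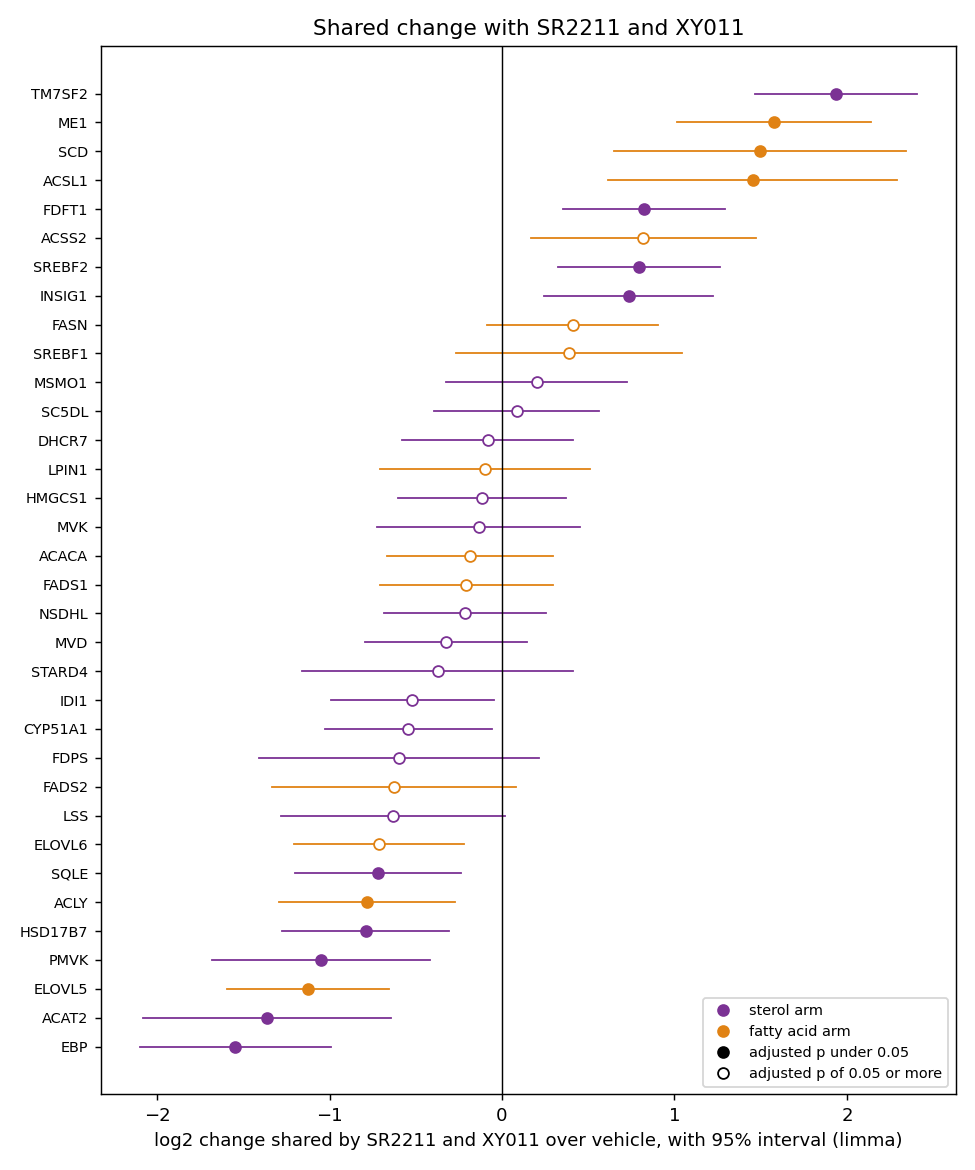
Treatment term shared by SR2211 and XY011 for each of the 34 genes, in log2 units with its 95% interval from limma, with colours for the 2 arms, filled where the adjusted p is under 0.05. TM7SF2 stands highest at 1.93 and EBP lowest at -1.55, and the 14 filled genes lie on both sides of 0.

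At the entry of the sterol arm, ACAT2 and HMGCS1 join acetyl-CoA units into HMG-CoA. ACAT2, the cytosolic thiolase, was at 13.0 RPKM with SR2211 against 23.3 RPKM with vehicle, at 8.91 FPKM with XY011 against 36.6 FPKM with vehicle, and at 15.9 FPKM with ENZ against 26.2 FPKM with vehicle. It was below its vehicle in all 3 pairs, with log2 changes of -0.80, -1.92 and -0.69, and its shared change was -1.36 (SE 0.30, limma adjusted p = 0.0264). Its exons overlap those of TCP1 on the other strand, which had log2 changes of -1.10, -1.45 and -0.44, and the strand of the reads is not stated, so the reads of both genes cannot be told apart there. HMGCS1, the synthase that follows, was at 20.7 RPKM with SR2211 against 20.6 RPKM with vehicle, at 13.3 FPKM with XY011 against 15.9 FPKM with vehicle, and at 33.8 FPKM with ENZ against 47.9 FPKM with vehicle. The SR2211 pair was nearly equal in HMGCS1, with a ratio of 1.01. At the smallest reads that fit, 923 and 919, its 95% interval ran from 0.920 to 1.11. The gene missed the threshold of the shared fit (-0.12, SE 0.20, limma adjusted p = 0.692).

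From mevalonate to farnesyl diphosphate, 1 of 5 genes fell and none rose, beside 13.3% of all genes that fell and 8.93% that rose. That gene was PMVK, the second of the mevalonate kinases, at 18.7 RPKM with SR2211 against 29.1 RPKM with vehicle, at 7.29 FPKM with XY011 against 22.2 FPKM with vehicle, and at 48.3 FPKM with ENZ against 53.4 FPKM with vehicle. PMVK was below its vehicle in all 3 pairs, most with XY011 and least with ENZ (-0.14), and its shared change was -1.05 (SE 0.26, limma adjusted p = 0.0366). MVK, the first kinase, moved apart between pairs, with 5.40 RPKM with SR2211 against 8.06 RPKM with vehicle and 4.14 FPKM with XY011 against 3.38 FPKM with vehicle. MVD, the decarboxylase, and IDI1, the isomerase of isopentenyl diphosphate, had log2 changes between -0.68 and -0.29 in the 3 pairs. IDI1 had 28.7 RPKM with SR2211 against 42.6 RPKM with vehicle, 25.5 FPKM with XY011 against 36.0 FPKM with vehicle, and 22.4 FPKM with ENZ against 29.5 FPKM with vehicle. Below its vehicle in each pair, IDI1 still missed the threshold, at -0.52 (SE 0.19, limma adjusted p = 0.102). FDPS, which makes farnesyl diphosphate, was at 110.7 RPKM with SR2211 against 104 RPKM with vehicle, at 50.2 FPKM with XY011 against 124 FPKM with vehicle, and at 224 FPKM with ENZ against 353 FPKM with vehicle. Its change was thus past the size rule with XY011 alone (-1.28), while SR2211 gave 0.09, and 8 named pseudogenes of FDPS could take or give reads in an unstated way.

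At squalene the genes on either side moved in opposite directions. FDFT1, squalene synthase, was at 388 RPKM with SR2211 against 221 RPKM with vehicle, at 488 FPKM with XY011 against 272 FPKM with vehicle, and at 377 FPKM with ENZ against 476 FPKM with vehicle. It rose by 0.82 in the shared fit (SE 0.19, limma adjusted p = 0.0320), with near-equal log2 changes of 0.81 and 0.84, and had a change of -0.34 with ENZ. SQLE, the epoxidase that takes squalene on, was at 18.6 RPKM with SR2211 against 28.9 RPKM with vehicle, at 10.2 FPKM with XY011 against 18.8 FPKM with vehicle, and at 16.4 FPKM with ENZ against 14.6 FPKM with vehicle. SQLE fell by 0.72 in the shared fit (SE 0.20, limma adjusted p = 0.0475), just inside the threshold. LSS, which closes the rings to lanosterol, was at 23.6 RPKM with SR2211 against 26.6 RPKM with vehicle, at 6.59 FPKM with XY011 against 15.3 FPKM with vehicle, and at 31.9 FPKM with ENZ against 35.5 FPKM with vehicle. LSS was past the size rule with XY011 (-1.10), and its ratio of 0.887 with SR2211 had a counting interval that held 1 at the smallest reads that fit.

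Between lanosterol and cholesterol stood both the gene that rose most and the gene that fell most of all 34 in the shared fit. TM7SF2, a sterol reductase, was at 142 RPKM with SR2211 against 36.8 RPKM with vehicle, at 109.7 FPKM with XY011 against 27.7 FPKM with vehicle, and at 237 FPKM with ENZ against 129 FPKM with vehicle. It was above its vehicle in all 3 pairs, with log2 changes of 1.92, 1.95 and 0.87, and its shared change was 1.93 (SE 0.19, limma adjusted p = 0.00560). VPS51, whose exons overlap it on the same strand, had changes of 0.59, 0.75 and 0.13. EBP, a sterol isomerase, was at 47.7 RPKM with SR2211 against 114 RPKM with vehicle, at 34.8 FPKM with XY011 against 128 FPKM with vehicle, and at 109.7 FPKM with ENZ against 180.2 FPKM with vehicle. EBP was below its vehicle in all 3 pairs, with log2 changes of -1.24, -1.85 and -0.71, and fell by 1.55 in the shared fit (SE 0.23, limma adjusted p = 0.0111).

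The other enzymes of this stretch changed less than TM7SF2 and EBP in the shared fit. With ENZ, though, HSD17B7 had a log2 change of -0.96, larger in size than those of TM7SF2 and EBP. HSD17B7, the keto-reductase of sterol demethylation, was at 3.92 RPKM with SR2211 against 8.27 RPKM with vehicle, at 5.15 FPKM with XY011 against 8.75 FPKM with vehicle, and at 6.64 FPKM with ENZ against 13.9 FPKM with vehicle. It fell by 0.79 in the shared fit (SE 0.20, limma adjusted p = 0.0381) and has 2 named pseudogenes. The smallest reads that fit were 49 with SR2211 against 104 with vehicle. CYP51A1, the lanosterol demethylase, had log2 changes of -0.42, -0.66 and -0.50 and missed the threshold (limma adjusted p = 0.0976). NSDHL, which works with MSMO1 and HSD17B7 to remove methyl groups, had -0.20, -0.22 and -0.30. MSMO1 had -0.04, 0.44 and -0.05, SC5DL, a sterol desaturase, 0.18, -0.01 and -0.36, and DHCR7, which makes cholesterol from its last precursor, 0.08, -0.25 and -0.24. None of these 5 passed the test of the shared fit, and the signs of MSMO1 with SR2211 and of SC5DL with XY011 turned when the pairs were centred.

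Of the regulators of the sterol arm, SREBF2 and INSIG1 rose. SREBF2, whose promoter holds the sterol regulatory element printed above, was at 106 RPKM with SR2211 against 61.9 RPKM with vehicle, at 80.3 FPKM with XY011 against 45.0 FPKM with vehicle, and at 99.9 FPKM with ENZ against 92.7 FPKM with vehicle. Its log2 change was 0.76 with SR2211 and 0.82 with XY011, with a shared change of 0.79 (SE 0.19, limma adjusted p = 0.0351), and was 0.11 with ENZ. INSIG1, which restrains SREBP processing and is itself an SREBP target, was at 184 RPKM with SR2211 against 122 RPKM with vehicle, at 159 FPKM with XY011 against 85.9 FPKM with vehicle, and at 165 FPKM with ENZ against 204 FPKM with vehicle. It rose by 0.74 in the shared fit (SE 0.20, limma adjusted p = 0.0473), close to the threshold, and had a change of -0.30 with ENZ. STARD4, a carrier of cholesterol between membranes, was at 4.87 RPKM with SR2211 against 3.82 RPKM with vehicle, at 1.59 FPKM with XY011 against 4.29 FPKM with vehicle, and at 2.91 FPKM with ENZ against 8.50 FPKM with vehicle. This low gene was past the size rule with XY011 (-1.03) and ENZ (-1.28) and had 0.28 with SR2211. There the smallest reads that fit, 90 against 71, gave an interval of 0.923 to 1.76.

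At the start of the fatty acid arm, the suppliers of acetyl-CoA and reducing power went apart. ME1, malic enzyme, a source of NADPH, was at 156 RPKM with SR2211 against 41.1 RPKM with vehicle, at 83.0 FPKM with XY011 against 34.2 FPKM with vehicle, and at 62.1 FPKM with ENZ against 39.8 FPKM with vehicle. ME1 was above its vehicle in all 3 pairs, with log2 changes of 1.89, 1.26 and 0.63, and rose by 1.58 in the shared fit (SE 0.23, limma adjusted p = 0.0109). ACLY, which splits citrate into acetyl-CoA, was at 135 RPKM with SR2211 against 201 RPKM with vehicle, at 90.6 FPKM with XY011 against 180.4 FPKM with vehicle, and at 215 FPKM with ENZ against 339.6 FPKM with vehicle. ACLY fell by 0.78 (SE 0.21, limma adjusted p = 0.0445), and its change with ENZ was -0.65. ACSS2, which makes acetyl-CoA from acetate, was at 39.3 RPKM with SR2211 against 15.5 RPKM with vehicle, at 24.0 FPKM with XY011 against 18.6 FPKM with vehicle, and at 89.9 FPKM with ENZ against 65.4 FPKM with vehicle. It was above its vehicle in all 3, past the size rule with SR2211 (1.29), and missed the threshold of the shared fit (0.82, SE 0.27, limma adjusted p = 0.0743).

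The palmitate enzymes themselves did not pass the shared test. FASN, fatty acid synthase, was at 555 RPKM with SR2211 against 372 RPKM with vehicle, at 124 FPKM with XY011 against 105 FPKM with vehicle, and at 869 FPKM with ENZ against 849 FPKM with vehicle. Its log2 changes were 0.58, 0.24 and 0.03 (shared 0.41, SE 0.21, limma adjusted p = 0.189), and the smallest reads that fit the SR2211 pair were 38424 against 25862. ACACA, acetyl-CoA carboxylase, had log2 changes of -0.30, -0.07 and -0.78, the last from 81.7 FPKM with ENZ against 141 FPKM with vehicle.

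SCD, which puts the double bond into stearate, had the largest change of the set in any pair. It was at 1346 RPKM with SR2211 against 287 RPKM with vehicle, at 391 FPKM with XY011 against 229 FPKM with vehicle, and at 218 FPKM with ENZ against 238 FPKM with vehicle. The smallest reads that fit the SR2211 pair were 60149 against 12861, a ratio of 4.70 with a counting interval of 4.61 to 4.79. SCD rose by 1.50 in the shared fit (SE 0.35, limma adjusted p = 0.0313). ELOVL5, which elongates polyunsaturated fatty acids, was at 204 RPKM with SR2211 against 453 RPKM with vehicle, at 174 FPKM with XY011 against 377 FPKM with vehicle, and at 135 FPKM with ENZ against 499.8 FPKM with vehicle. Lower by more than the size rule with each compound, at -1.15, -1.11 and -1.88, ELOVL5 fell by 1.13 in the shared fit (SE 0.19, limma adjusted p = 0.0149). ELOVL6, which elongates palmitate, had 6.32 RPKM with SR2211 against 9.81 RPKM with vehicle, 2.69 FPKM with XY011 against 5.71 FPKM with vehicle, and 18.9 FPKM with ENZ against 18.8 FPKM with vehicle. Its shared change of -0.71 (SE 0.20) lay just outside the threshold at a limma adjusted p of 0.0516.

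The neighbouring desaturases FADS1 and FADS2 did not pass the shared test. FADS2 was at 694 RPKM with SR2211 against 731 RPKM with vehicle, at 332 FPKM with XY011 against 751 FPKM with vehicle, and at 821 FPKM with ENZ against 1040 FPKM with vehicle. Its -1.17 with XY011 was past the size rule, while SR2211 gave -0.08. FEN1, a gene of DNA replication whose exons overlap FADS2 on the same strand, had 14.3 RPKM with SR2211 against 66.0 RPKM with vehicle, 4.65 FPKM with XY011 against 57.2 FPKM with vehicle, and 41.1 FPKM with ENZ against 71.6 FPKM with vehicle. The part of these reads in the FADS2 values was not tested. FADS1 had log2 changes of -0.02, -0.39 and -0.40.

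ACSL1, which activates long-chain fatty acids, rose, while SREBF1 and LPIN1 did not pass the shared test. ACSL1 was at 492 RPKM with SR2211 against 108.4 RPKM with vehicle, at 121 FPKM with XY011 against 72.4 FPKM with vehicle, and at 295 FPKM with ENZ against 209 FPKM with vehicle. It was above its vehicle in all 3 pairs, by 2.17, 0.74 and 0.50 on the log2 scale, and had a shared change of 1.45 (SE 0.35, limma adjusted p = 0.0326). SREBF1, the regulator of this arm, was at 234 RPKM with SR2211 against 129 RPKM with vehicle, at 50.8 FPKM with XY011 against 53.9 FPKM with vehicle, and at 923 FPKM with ENZ against 782 FPKM with vehicle. Its log2 changes were 0.86, -0.08 and 0.24, the largest in the SR2211 pair, and it missed the threshold (limma adjusted p = 0.322). LPIN1, a phosphatase of glycerolipid synthesis, had log2 changes of 0.31, -0.50 and -0.67.

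**Figure D3:**
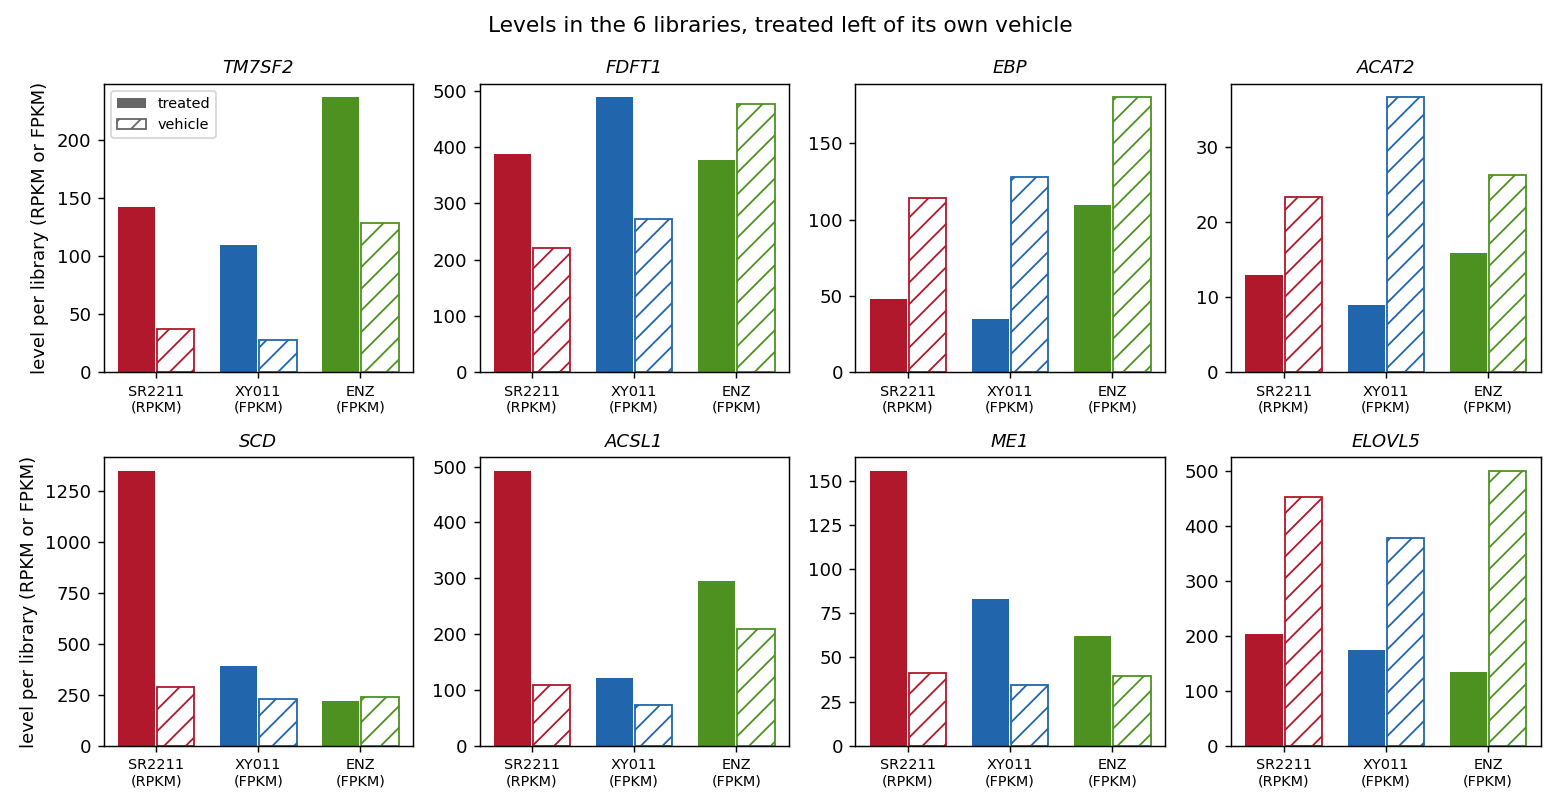
Level of 8 of the genes in each of the 6 libraries, 1 bar per library from 0, with the treated library left of its own vehicle (RPKM for the SR2211 experiment, FPKM for the XY011 and ENZ experiments). TM7SF2 and ME1 stand above vehicle in all 3 experiments, EBP, ACAT2 and ELOVL5 below it, and SCD stands out with SR2211 at 1346 RPKM against 287 RPKM with vehicle.

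The SR2211 pair allowed reads to be recovered as whole numbers for all 34 members, from 49 to 60149 reads per gene and library, so that counting error could be set against each ratio. The exact 95% interval lay above 1 in 12 members and below 1 in 14, and held 1 in 8, which were HMGCS1, FDPS, LSS, MSMO1, NSDHL, DHCR7, STARD4 and FADS1. Reads were recovered for the members alone, so these counts have no share over all genes beside them and cannot be read as a trait of this set. The highest ratios after SCD were 4.54 for ACSL1 (4.37 to 4.71), 3.87 for TM7SF2 (3.50 to 4.28) and 3.78 for ME1 (3.55 to 4.04). The lowest were 0.418 for EBP (0.375 to 0.467), 0.451 for ELOVL5 (0.436 to 0.466) and 0.473 for HSD17B7 (0.330 to 0.671). These intervals cover counting error only and say nothing of the spread between cultures. They rest on the smallest whole reads that fit, so the true intervals can be narrower, and one that held 1 may then not.

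**Figure D4:**
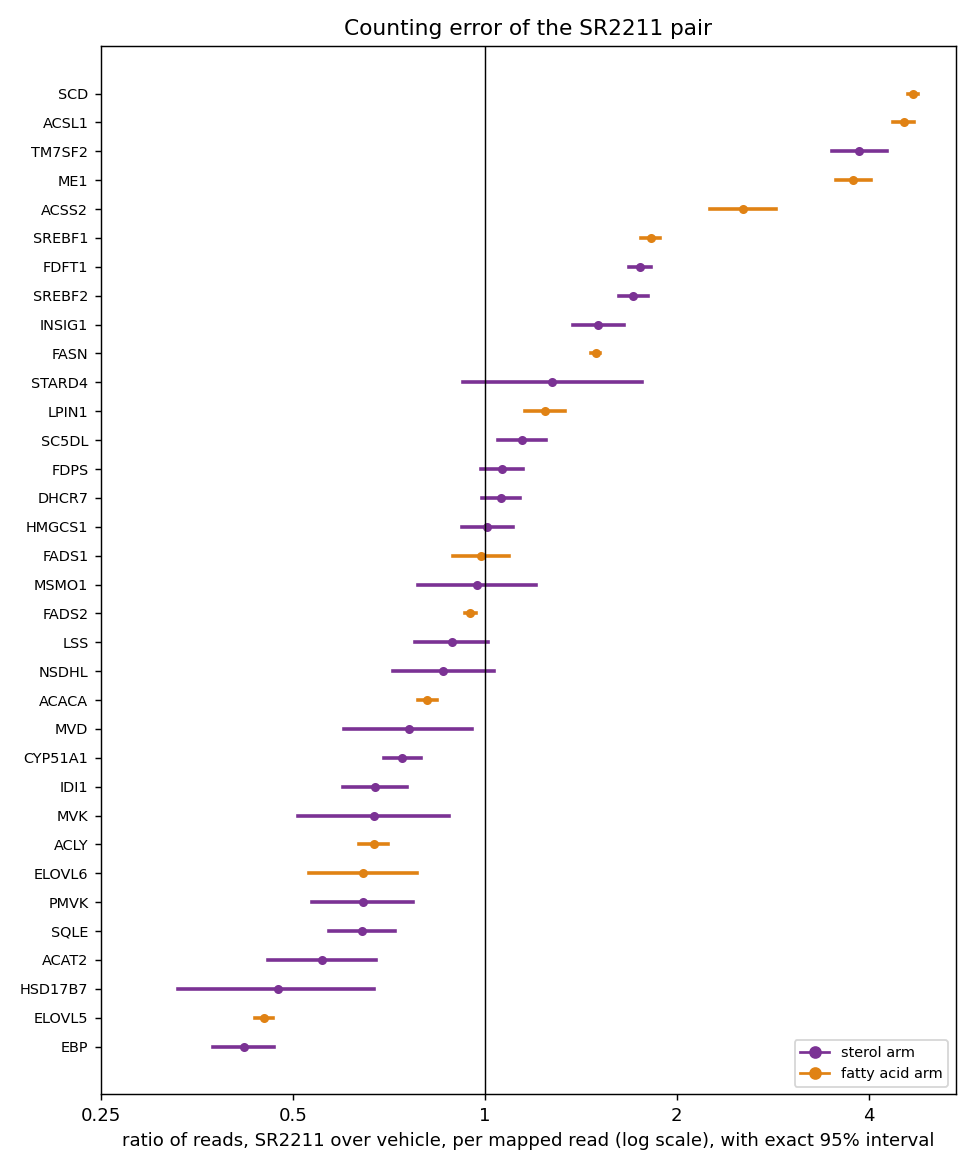
Ratio of reads with SR2211 over vehicle per mapped read for each of the 34 genes, on a log axis, with the exact 95% interval of counting error in 1 library per group. SCD (4.70), ACSL1, TM7SF2 and ME1 (3.78) stand far to the right, and EBP (0.418), ELOVL5 and HSD17B7 far to the left.

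At the matched dose of 5 µM and time of 48 h, SR2211 and XY011 could be set side by side, but with 1 pair each the difference has no test. Each compound was in an experiment of its own, in RPKM or FPKM, so compound and experiment cannot be told apart. The log2 change with SR2211 exceeded that with XY011 by 1 or more in 6 of 34 members, ACSL1 (by 1.44), SCD (1.46), FDPS (1.37), STARD4 (1.31), ACAT2 (1.12) and FADS2 (1.10), and was below it by 1 or more in 0. Over the 11635 genes tested in both pairs, 4.26% had a difference of 1 or more and 1.77% of -1 or less. With each pair centred, 407 genes had a difference of 1 or more and 272 of -1 or less, in place of 496 and 206. Quantile scaling gave 342 and 303, and the same 6 members were at 1 or more with both scalings. The median difference was 0.64 in the fatty acid arm and 0.20 in the sterol arm, beside 0.06 over all genes. NSDHL, TM7SF2, FDFT1, ELOVL5 and SREBF2 each had log2 changes within 0.06 of each other in the 2 pairs. ENZ was given at another dose, so its values stand beside these without a comparison.

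Further genes of the pathway were read by function, and their counts stand beside the shares over all genes, 5.10% higher and 5.75% lower with SR2211, 7.59% and 13.2% with XY011, and 3.68% and 4.68% with ENZ. ELOVL7, an elongase of saturated very long chains, was past the size rule in all 3 pairs, with log2 changes of -1.14, -2.45 and -2.03. ACSL3, an acyl-CoA synthetase of lipid droplets, was lower in all 3 as well, by log2 changes of -1.27, -2.26 and -1.84. Among the other fatty acid enzymes 1 was higher and 1 lower of 11 with SR2211, 1 and 2 of 10 with XY011, and 1 and 1 of 11 with ENZ, and IDH1, a further source of NADPH, had log2 changes of 1.92, 1.54 and 0.80.

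Of 10 genes of sterol uptake, storage and export, 2 were higher and 2 lower with SR2211, 3 and 3 with XY011, and none with ENZ. ABCG1, a sterol exporter, was at 25.7 RPKM with SR2211 against 2.52 RPKM with vehicle, at 10.0 FPKM with XY011 against 2.37 FPKM with vehicle, and at 6.55 FPKM with ENZ against 4.89 FPKM with vehicle. SCARB1, the HDL receptor, was lower with SR2211 (-1.11) and XY011 (-1.82) and had -0.28 with ENZ, and NCEH1, a cholesteryl ester hydrolase, had -1.29, -1.54 and 0.08. NPC2, which carries cholesterol out of lysosomes, had 1.07, 1.12 and 0.16. Of the 11 further regulators none was past the rule with SR2211, and 2 were higher with XY011 and 1 with ENZ, with MLXIPL, a glucose-responsive factor, at log2 changes of 0.97, 1.28 and 1.32 from levels under 4. In fatty acid activation and glycerolipid synthesis 1 of 12 genes was higher and 1 lower with SR2211, 2 and 1 with XY011, and 0 and 1 with ENZ, and AGPAT2, an acyltransferase, had 1.05, 1.34 and 0.74.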

How the data were processed

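Values were analysed from 6 libraries of C4-2B cells, made from poly(A)-selected RNA per the labels' protocols. The SR2211 experiment holds RPKM computed by the authors and deposited per library. The XY011 and ENZ experiments hold deposited FPKM. Per the submitters' processing notes, the tools included Cufflinks, Cuffdiff, BWA and Bowtie, with hg19 (GRCh37) as the build. Not given in the sources used here are the step each tool did and whether counting used strand. The extraction protocol names XY018 in place of XY011, and SR2211 for the ENZ pair, and groups follow titles and agents.

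Within a pair, changes are log2((treated + 1)/(vehicle + 1)) over genes at 1 or more in either library, small RNA genes left out, with a size rule of 1 and no p-value. The shared fit used limma 3.58.1 in R 4.3.3 on log2(value + 1), genes with a mean of 1 or more, experiment as covariate and 4 libraries. Its prior had 5.30 degrees of freedom and an SD of 0.212, and nothing says that libraries came from separate cultures, so its p-values measure the spread between these samples. The shared fit and the recovery of reads were run on simulated data as a check of the code only. For the fit, the planted changes were larger than those of the members and the noise was smaller, so no error rate follows for these data. All members are named. Of other genes of the pathway, those past the size rule in at least 2 experiments are, except that the list of other sterol and isoprenoid enzymes is not reported here. Members and lists were chosen with earlier results of these data known.

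Depth could be found for the SR2211 pair alone. Its microRNA genes gave 8163382 mapped reads with SR2211 (34 of 35 genes, 97.1%, whole within 0.01 read) and 8200243 with vehicle (26 of 26). The smallest whole reads that matched both RPKM values at any whole length, not only an annotated one, were taken. True numbers can be a multiple of them. For 9 members, HMGCS1 and SC5DL among them, the length found is over that of the longest GENCODE 29 transcript, so the Clopper-Pearson 95% intervals there rest on a gene length that this annotation does not hold. Depth of the other pairs is unknown. Exons of 15 members overlap a gene on the other strand in GENCODE 29, and 5 members have named pseudogenes. The alternatives were pseudocounts of 0.1 and 5, filters of none and 5, centring, quantile scaling, limma's trend and robust options and a fit of all 6 libraries.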

Additional observations from a re-analysis of the deposited data

How the results depend on the processing

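Over the 3 pairs and the alternatives tried, 97 of 108 counts and medians moved little (counts within 1.5-fold, medians by at most 0.1 with the same sign), and 594 of 608 changes of single members stayed on their side of the size rule, though 11 changes under it turned sign with centring or quantile scaling. Both totals hold comparisons whose outcome was fixed. A filter cannot alter the change of a single member. With all 34 members past the filter of 1, its removal could not alter their counts and medians either. A pseudocount of 0.1 gave 2 lower sterol genes with SR2211 and 2 with ENZ, where a pseudocount of 5 gave 0 with ENZ. Centring gave 3 higher sterol genes with XY011, a sterol median of -0.16, 1 lower fatty acid gene and a fatty acid median of 0.0816. Quantile scaling gave 2 higher sterol genes with XY011, a sterol median of -0.13 and a fatty acid median of 0.0911, and a fatty acid median of 0.42 with SR2211. In the shared fit of SR2211 and XY011, 234 of 271 member values kept direction and call. A pseudocount of 0.1 left 0 members that rose and 0 that fell in limma, with 7 and 8 at an unadjusted p under 0.05 (1698 and 2489 over all genes), while the other alternatives gave 6 to 9 that rose and 3 to 9 that fell. Without a filter on low values SQLE, INSIG1 and ACLY missed the threshold. Centring left 4 that fell and quantile scaling 3. DHCR7, not past the threshold, turned to 0.0378 with centring and 0.0861 with quantile scaling, and LPIN1 to 0.0183 and 0.0165. The cause was not tested. The shared fit is paired through its experiment term, and with 1 library per group no further replicate block could be fitted. Leaving out a library would leave no residual degree of freedom, so it gives no test. At the smallest whole reads that fit, depth limits HSD17B7, STARD4 and MVK most, with 49 to 138 reads per library in the SR2211 pair. Their true reads can be a multiple of these.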

Other observations

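Genes of fatty acid oxidation, the opposite path, were counted by the same size rule. Of 15 tested, 0 were higher and 0 lower with SR2211, 0 and 3 with XY011, and 0 and 1 with ENZ, beside 5.10% of all genes higher and 5.75% lower with SR2211, 7.59% and 13.2% with XY011, and 3.68% and 4.68% with ENZ. Their median log2 changes were 0.03, -0.22 and 0.13. SLC25A20, the mitochondrial carnitine carrier, was at 4.88 RPKM with SR2211 against 9.26 RPKM with vehicle, at 2.47 FPKM with XY011 against 7.0 FPKM with vehicle, and at 11.9 FPKM with ENZ against 19.6 FPKM with vehicle. ECI2, an isomerase of unsaturated acyl-CoA, was at 75.4 RPKM with SR2211 against 107 RPKM with vehicle, at 78.7 FPKM with XY011 against 136.5 FPKM with vehicle, and at 82.5 FPKM with ENZ against 179 FPKM with vehicle. Both were below vehicle in all 3 pairs, and both were named after their values were seen.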
